A study of Homo sapiens with 4 samples.

Results

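Components of interferon signalling were examined in RKO cells after CHD7 knockdown, to see whether the lower level of IRF9 stood alone among them. The 9 genes followed were the receptor subunits IFNAR1 and IFNAR2, the kinases JAK1 and TYK2, the transcription factor STAT2, and the interferon regulatory factors IRF1, IRF3, IRF7 and IRF9. They were taken by gene symbol from the 15357 genes of the expression tables, and all 9 were among the 11955 genes with enough reads to be fitted. The set was chosen by the measured difference of IRF9 between these same groups, so the fold changes of these genes are a description and carry no p-value.

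RKO is a human colon cancer cell line. The control group, named vector, was infected with a lentivirus carrying a control shRNA, and the knockdown group, named shCHD7_2, with one carrying the second CHD7 shRNA. Both lines expressed their shRNA stably, were grown under protocols that name no added interferon, and gave 2 samples each for poly(A)-selected RNA-seq. Whether the 2 samples of a group came from separate cultures is not given, so the spread between them may be technical, and with 1 CHD7 shRNA the loss of CHD7 and other effects of that shRNA cannot be told apart.

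Type I interferons bind a receptor made of IFNAR1 and IFNAR2, which carries the kinases TYK2 and JAK1. The kinases phosphorylate STAT proteins, and STAT2 joins IRF9 in the complex ISGF3, in which IRF9 supplies most of the sequence recognition of the interferon-stimulated response element in the promoters of interferon-stimulated genes. IRF3 and IRF7 act earlier, switching on the interferon genes themselves when a cell senses viral nucleic acid, and IRF1 drives many genes that answer interferon gamma.

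In GRCh38 (GENCODE 29) IRF9 lies on the plus strand at chr14:24161053-24166565, and a read-through gene model, AL136295.5, overlaps it on the same strand. That model is not listed in the tables, so reads it shares with IRF9 could not be separated. Sequence before the start of IRF9 holds words resembling the elements of its own pathway, and these stretches are shown because they resemble what ISGF3 and STAT dimers are known to read. The first stretch holds GAANNGAAA in capitals at chr14:24161219-24161247, and the second holds TTCNNNGAA, the core of the STAT-binding element, at chr14:24161192-24161220 (plus strand, RefSeq, GRCh38.p14). GAANNGAAA resembles the core of the interferon-stimulated response element but is a base shorter and does not match it. In the labels below, response element core stands only for the word GAANNGAAA. Both lie before the RefSeq start of IRF9, while GENCODE 29 also holds transcripts that start further back. The motifs were chosen after the IRF9 promoter had been looked at.

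IRF9, response element core: ccctggaggaGAACTGAAActtagggtgg

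IRF9, STAT element core: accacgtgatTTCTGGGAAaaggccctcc

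IRF1, STAT element core: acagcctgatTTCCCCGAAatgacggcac

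PARP14, response element core: agttttccagGAAACGAAAgcgaaagagt

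OAS3, response element core: ctgctagaaaGAAACGAAActgaaagcag

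The stretches of IRF1 (chr5:132490879-132490907, minus strand), PARP14 (chr3:122680795-122680823, plus strand) and OAS3 (chr12:112938316-112938344, plus strand) are set beside it for comparison. Here a promoter is the 250 bases before and 50 bases after the RefSeq start of a gene. Both strands were read, the words do not overlap in the IRF9 promoter, and in some other promoters (that of PARP14, for example) they do. Of the genes followed, 6 of 9 had a promoter in the RefSeq table. Among these 6, GAANNGAAA was found in IRF9 alone, beginning 36 bases before the start, and TTCNNNGAA in IRF9 and IRF1, beginning 63 and 124 bases before it. For comparison, GAANNGAAA is present in 7.86% and TTCNNNGAA in 7.88% of all 27305 promoters of that length. A match is a description of the letters and does not show binding.

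The knockdown was checked first. CHD7 had 1326 and 1436 estimated counts in the vector samples and 890 and 800 in the shCHD7_2 samples, a log2 fold change of -0.74 (SE 0.088, with an adjusted p of 4.2e-06 by the quasi-likelihood test of edgeR). The samples held 15734666 to 16068642 estimated counts in all. With edgeR, 344 genes met an adjusted p below 0.05 together with a change of at least 1.5-fold, which is the rule for calling a gene here. They were 2.88% of the genes tested, 1.37% lower and 1.51% higher in shCHD7_2 cells. Of the epithelial markers, KRT18 and KRT8 were well expressed in all samples, at a mean FPKM of 58.0 and 12.3, and EPCAM and CDX2 were present. CDH1 and KRT20 had at most 1 count in any sample, and KRT19 and VIL1 were not listed in the tables. Of the leukocyte markers only CD68 passed the filter, but at a mean FPKM of 559 it was far above the epithelial markers. None of the fibroblast markers passed, and the other leukocyte and fibroblast markers that were listed had at most 7 counts in a sample.

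IRF9, the DNA-binding partner of STAT2, was the lowest in the knockdown relative to the control of the genes followed. Its estimated counts were 87 and 93 in the vector samples and 49 and 58 in the shCHD7_2 samples. Both knockdown samples lay below both control samples. As CPM, the counts per 1e6 counts of the sample after scaling by TMM, this was 5.60 and 5.89 against 3.06 and 3.63, or 5.75 ± 0.20 against 3.35 ± 0.41 (SD, n = 2 each). The log2 fold change was -0.78 (SE 0.20), with a 95% interval from -1.19 to -0.37, so the knockdown level was 0.582 times the control level. The interval reaches above the 1.5-fold limit, which is -0.58 on the log2 scale.

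The counts of IRF9 were few. Counting error alone gives exact Poisson 95% intervals of 69.7 to 107 and 75.1 to 114 reads for the vector samples, and of 36.3 to 64.8 and 44.0 to 75.0 for the shCHD7_2 samples. The intervals of the first vector and the second shCHD7_2 sample therefore overlap. The mean expression of IRF9 was low, at 2.17 log2 CPM. Among 579 genes with a mean within 0.5 log2 CPM of its own, IRF9 included, 8.64% were called in either direction. Of these 579, 5 genes, or 0.864%, had a fold change at or below that of IRF9, with IRF9 itself counted among them. Over all genes, IRF9 ranked 105 of 11955 from the lowest fold change and 71 of the 164 genes called lower. Since this fold change chose the gene, its place is a description.

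STAT2, which joins IRF9 in ISGF3, was slightly higher. It had 865 and 861 estimated counts in the vector samples and 1005 and 1011 in the shCHD7_2 samples, and the groups did not overlap. Its log2 fold change was 0.19 (SE 0.086, 95% interval 0.016 to 0.37). On the FPKM scale, which corrects for transcript length, IRF9 was less abundant than STAT2 in every sample. In the vector samples its FPKM was 28.9% and 30.9% of that of STAT2, and in the shCHD7_2 samples 14.2% and 16.6%. These ratios concern mRNA, and protein was not measured in these data.

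**Figure D1:**
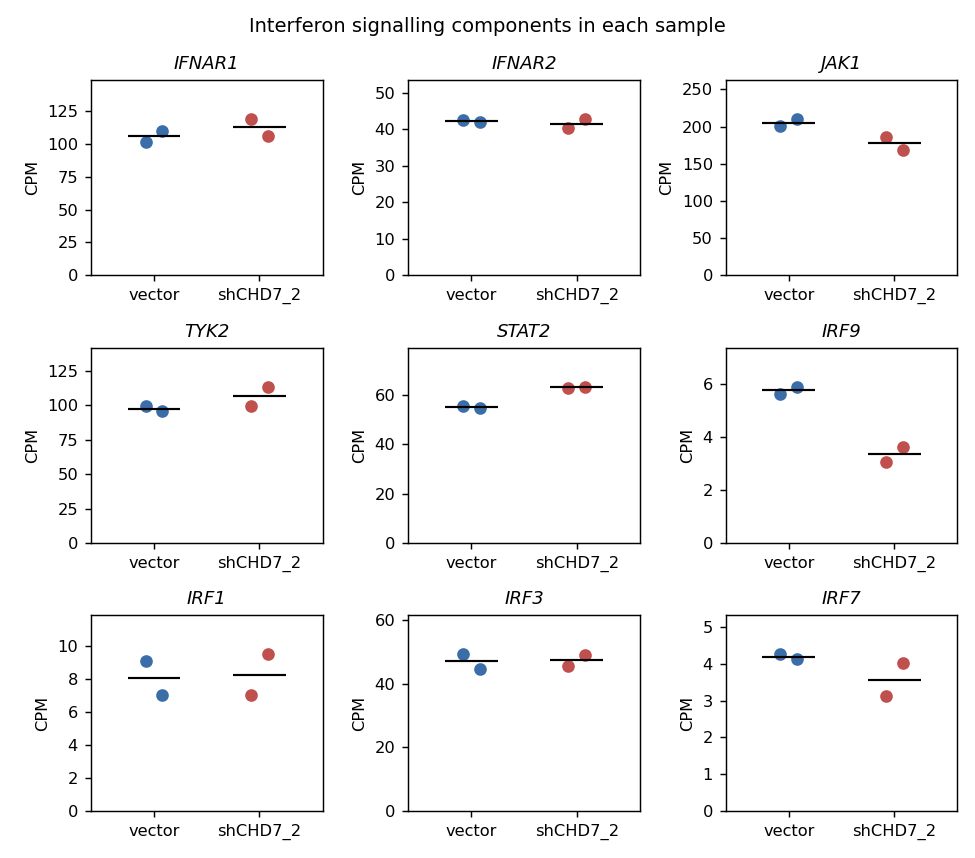
Expression of each gene in each sample, in CPM on an axis that starts at 0 in every panel; points are the 2 samples of each group and black lines their means. IRF9 was at 5.60 and 5.89 CPM in vector and at 3.06 and 3.63 CPM in shCHD7_2 cells, while the points of IRF1, IRF3, IFNAR1 and IFNAR2 overlapped between the groups.

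At the receptor, neither subunit was called. IFNAR1 had 1575 and 1740 estimated counts in the vector samples and 1911 and 1698 in the shCHD7_2 samples. The groups overlapped in CPM but not in FPKM (18.3 and 20.4 against 25.2 and 21.4), and the log2 fold change was 0.09 (SE 0.085). On the log2(FPKM + 1) scale, by limma, it was 0.26. IFNAR2 had 659 and 665 against 646 and 684 estimated counts, with overlapping groups and a log2 fold change of -0.02 (SE 0.091). Its 95% interval, from -0.21 to 0.16, was the range of change these samples allow for it.

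Neither of the receptor-bound kinases was called. JAK1, which sits on IFNAR2, had 3111 and 3320 estimated counts in the vector samples and 2984 and 2686 in the shCHD7_2 samples. Its groups did not overlap, and the log2 fold change was -0.21 (SE 0.078, 95% interval -0.37 to -0.05). TYK2, which sits on IFNAR1, had 1541 and 1512 against 1598 and 1814 estimated counts. Its groups did not overlap in CPM, by a narrow margin (99.3 and 95.8 against 99.7 and 114), but overlapped in FPKM, and the log2 fold change was 0.13 (SE 0.085, 95% interval -0.047 to 0.31). Without the second shCHD7_2 sample TYK2 was at 0.031.

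None of the other interferon regulatory factors was called. IRF1 had 141 and 111 estimated counts in the vector samples and 112 and 151 in the shCHD7_2 samples, and a log2 fold change of 0.03 (SE 0.18). Each group held a low and a high sample of IRF1, and the sign of its change depended on which sample was left out, from -0.20 to 0.23. IRF3, the factor that is present before infection in most cells, had 764 and 707 against 730 and 784 estimated counts and a log2 fold change of 0.01 (SE 0.092).

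IRF7, which is itself interferon-stimulated, had 66 and 65 against 50 and 64 estimated counts. One knockdown sample lay close to the controls and the other below them, so the CPM of the groups did not overlap while the FPKM did (2.65 and 2.22 against 1.74 and 2.40). The log2 fold change was -0.23 (SE 0.21), and its 95% interval, from -0.67 to 0.21, reached past a 1.5-fold decrease. These counts were too few to tell a decrease of that size from none.

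Set side by side, 1 of the 9 genes, IRF9, met the rule for a call, against 2.88% of all genes tested. Since the difference of IRF9 chose the set, nothing is read from that count. The CPM of the groups did not overlap for 5 of 9 genes. For this count the background is high, since with 2 samples a group 53.7% of all genes tested did not overlap. The median log2 fold change of the 9 genes was 0.01, and that of all genes tested was 0.00056. Of the 9, 5 lay above 0 and 4 below, but the signs of IRF1, IRF3 and IFNAR2 changed when a sample was left out. The 95% intervals of all 8 other genes left out the value of IRF9, and those of 7 of 8 left out a 1.5-fold decrease, the exception being IRF7. The intervals of IRF7 and JAK1 nevertheless overlap that of IRF9 itself, and no test of one gene against another was made.

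**Figure D2:**
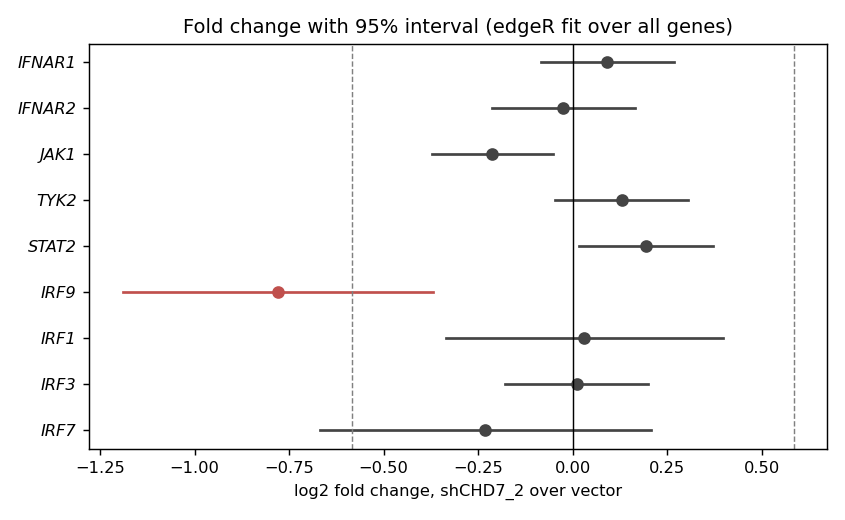
Log2 fold change of each gene in shCHD7_2 over vector cells (points) with its 95% interval (lines) from the edgeR fit; dashed lines mark 1.5-fold in each direction. IRF9 lies at -0.78 and the other 8 genes between -0.23 and 0.19.

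The level of each gene was compared in FPKM over the 4 samples. JAK1 was highest at a mean of 39.4, followed by IRF3 at 32.2, IFNAR2 at 25.3, TYK2 at 25.1, IFNAR1 at 21.3 and STAT2 at 13.5. IRF1 at 3.48, IRF9 at 2.99 and IRF7 at 2.25 were well below these. The ranges over samples of IFNAR2 and TYK2 overlapped, as did those of TYK2 and IFNAR1, of IRF1 and IRF9, and of IRF9 and IRF7, so these neighbours in the order are not separated. The regulatory factors IRF1, IRF7 and IRF9 had the lowest levels of the 9.

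Overlapping annotation limits some of these values. BCL2L12, on the opposite strand, overlaps IRF3 and is listed in the tables, as is RAVER2, which overlaps JAK1, and C5orf56, which overlaps IRF1. Whether counting used the strand is not given in the sources used here, so reads of such pairs may not be fully separated.

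The rest of the pathway was then read from lists of ligands, receptors, kinases, regulators, sensors and target genes written from general knowledge. Over these lists, 106 further genes were tested, and 3 were called, 2 higher and 1 lower. That is 2.83%, close to the 2.88% called among all genes. At such a share, a short list without a called gene says little. Their median log2 fold change was 0.02, with 57 above 0 and 49 below. Without the fold limit, 10 of the 106 had an adjusted p below 0.05 in edgeR (9.43%), against 11.5% of all genes tested.

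Of 21 interferon ligands, 3 were listed in the tables, with at most 9 counts in a sample, and none of these passed the filter on low counts. Of 12 other receptors, kinases and STATs, all tested, none was called. The most abundant were STAT6, IFNGR2 and IL10RB, with log2 fold changes of -0.13, -0.12 and -0.04. STAT3, which mainly serves cytokines of the interleukin 6 family and was picked out after its values were seen, had 1034 and 1001 estimated counts against 1386 and 1334, a log2 fold change of 0.39 (SE 0.084, adjusted p = 0.00355 from edgeR) that stayed below 1.5-fold.

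Of the other interferon regulatory factor genes and partners, 5 were tested and none was called, with log2 fold changes from -0.18 to 0.07. The most abundant were IRF2BP2 at -0.18, IRF5 at 0.01 and IRF2, an antagonist of IRF1, at -0.07. Among 13 negative regulators tested, none was called, and the median was -0.02. PTPN1, a phosphatase that acts on JAK2 and TYK2, had a log2 fold change of 0.26 (adjusted p = 0.0238), and PTPN11, another phosphatase, one of -0.03.

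Of the 15 nucleic acid sensors and adaptors tested, 1 was called lower and 1 higher, where 2.88% of all genes tested were called. With so few genes, nothing is read from that count. TANK, an adaptor that binds the kinase TBK1, had 567 and 592 estimated counts in the vector samples and 376 and 380 in the shCHD7_2 samples. It fell by 0.65 on the log2 scale (SE 0.097, adjusted p = 8.3e-05 from edgeR), and the samples of each group lay close together. TLR3, an endosomal sensor of double-stranded RNA, rose from 51 and 67 to 102 and 99 estimated counts, a log2 fold change of 0.74 (SE 0.19, adjusted p = 0.0141 from edgeR). Without the first vector sample, TLR3 was at 0.56 and no longer met the rule (adjusted p = 0.174). It also lost the call with DESeq2 (adjusted p = 0.153), with no low-count filter (adjusted p = 0.110 from edgeR) and by limma on log2(FPKM + 1). TBK1, the kinase that phosphorylates IRF3, was at 0.11 and AZI2, another adaptor of that kinase, at 0.15, neither called. MYD88, the adaptor of most Toll-like receptors, was at 0.13. Over the 15 genes tested in this list the median was 0.08.

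The interferon-stimulated genes, the usual targets of ISGF3, were the largest list, with 49 of 60 tested. Of these, 26 had a mean FPKM of 10 or more and 5 a mean below 1. One was called, in the higher direction, and none lower. The median log2 fold change was 0.03, with 28 genes above 0 and 21 below. The summed FPKM of the 56 genes listed in the tables, tested or not, was 1705 and 1634 in the vector samples and 1731 and 1822 in the shCHD7_2 samples. Much of this sum came from a few abundant genes. The mean FPKM was 394 for IFITM2, 287 for BST2, 188 for IFI16 and 183 for IFITM3.

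The called gene, TRIM22, is an antiviral ubiquitin ligase. It had 11 and 13 estimated counts in the vector samples and 29 and 35 in the shCHD7_2 samples, a log2 fold change of 1.38 (SE 0.34, adjusted p = 0.00935 from edgeR). Its counts were small, and it lost the call without the first vector sample (1.27, adjusted p = 0.0718) or without the second shCHD7_2 sample (1.23, adjusted p = 0.0796), with DESeq2 (adjusted p = 0.162), with no low-count filter (adjusted p = 0.0850 from edgeR) and by limma on log2(FPKM + 1). ISG15, a ubiquitin-like modifier and one of the classical targets of ISGF3, had 340 and 278 against 386 and 510 estimated counts, a log2 fold change of 0.50 (SE 0.13, adjusted p = 0.0120), just under the 1.5-fold limit. This value rested on single samples: ISG15 was called without the first vector sample (0.67) or the first shCHD7_2 sample (0.69), but was at 0.35 (adjusted p = 0.176) without the second vector sample and at 0.29 (adjusted p = 0.181) without the second shCHD7_2 sample. With DESeq2 its adjusted p was 0.0590. TRIM5, a capsid-binding restriction factor picked out after its values were seen, was at 0.51 (adjusted p = 0.00524). IFI16, a nuclear DNA sensor and one of the most abundant of the list, was at -0.24 (adjusted p = 0.0299 from edgeR). In edgeR its adjusted p was 0.0718 with library totals, 0.103 with no low-count filter and 0.163 with the replicate number as a block. With DESeq2 it was 0.0255.

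No other classical target was called. IFITM2, a membrane protein that blocks virus entry and the most abundant gene of the list, was at 0.08, and BST2, which tethers budding virus, at 0.10, both uncalled. MX1, an antiviral GTPase whose induction is a standard readout of type I interferon, had 466 and 512 against 483 and 522 estimated counts and a log2 fold change of 0.01 (SE 0.098). IFIT1, another standard readout, had 19 and 19 against 27 and 32 estimated counts and a log2 fold change of 0.60 (SE 0.31, adjusted p = 0.232). MX1 and IFIT1 were chosen as familiar examples after their values were seen. Other genes of the list were lower and not called, such as IFIT2 at -0.49 (SE 0.33), SAMD9L at -0.45 (SE 0.18) and SAMD9 at -0.32 (SE 0.11). These too were picked after their values were seen. The CPM of the groups did not overlap for 13 lower and 14 higher genes of the list, or 55.1% of it, against 53.7% of all genes tested.

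Of the 16 interferon gamma and IRF1 targets tested, none was called, and the median was 0.10. The most abundant were WARS, a tRNA synthetase, at -0.29 (adjusted p = 0.00807), CD274, which encodes PD-L1, at 0.13, and ICAM1, an adhesion molecule, at 0.10. FAS, a death receptor, was at 0.51 (adjusted p = 0.00272 from edgeR) and was picked out after its values were seen. None of the lists had a median beyond 0.10 in either direction.

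**Figure D3:**
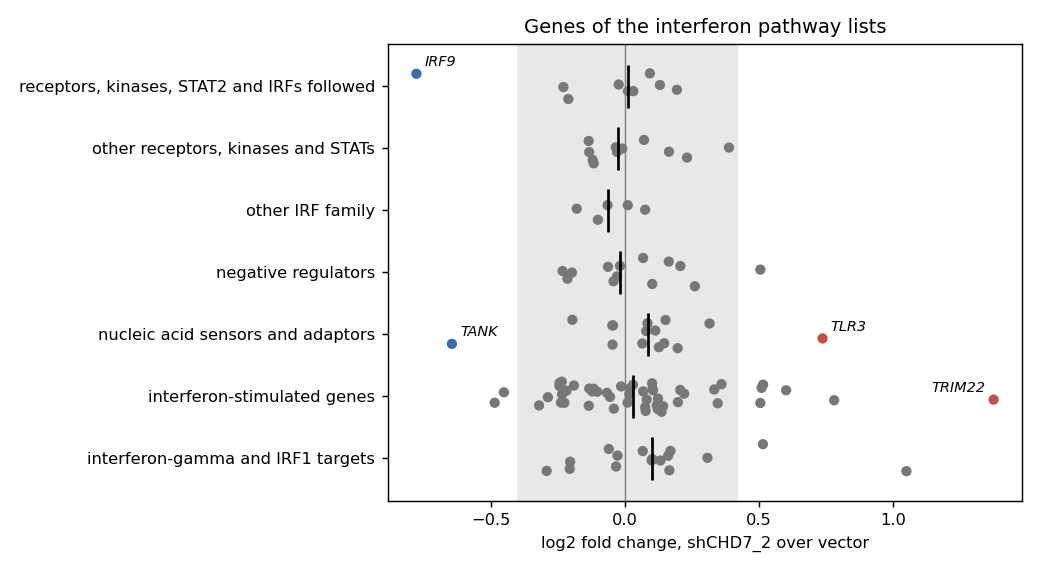
Log2 fold change of each tested gene of the interferon lists in shCHD7_2 over vector cells; blue points were called lower, red points higher and grey points not called, black bars are list medians, and the grey band holds the middle 90% of all genes tested. IRF9 and TANK lie below the band as called genes and TLR3 and TRIM22 above it, while the list medians lie near 0.

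The word GAANNGAAA was then set against the fold changes of the interferon-stimulated genes. It is neither the full response element nor its exact core, so genes without it may still hold that element, and genes with it may not. Of the 49 tested, 42 had a promoter in the RefSeq table, and 19 of these (45.2%) held GAANNGAAA, against 6.03% of the 9457 tested genes with a promoter. None of the 19 was called, and nothing is read from this. Over all tested genes with a promoter, only 3.16% with the word and 2.48% without it were called. The median log2 fold change of the 19 was -0.07, from -0.32 to 0.78, and that of the interferon-stimulated genes without the word was 0.12. Over all tested genes with a promoter these medians were -0.0081 and 0.0023. The difference within the list was not tested. OAS3 and PARP14, whose stretches are printed with that of IRF9, had estimated counts of 659 and 669 against 793 and 762, and of 1377 and 1472 against 1288 and 1212, so that one was higher and the other lower in both knockdown samples. The STAT element core was present in 10 of the 42, of which none was called, and with so few genes nothing is read from that count.

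IRF9 was also compared with the genes around it on chromosome 14. RNF31, a subunit of the linear ubiquitin ligase complex that ends 0.392 kb before IRF9 on the same strand, had 36.5 and 35.6 CPM in the vector samples and 38.2 and 37.5 CPM in the shCHD7_2 samples. Its log2 fold change was 0.07 (SE 0.092). Beyond it, PSME2 was at 0.26 (adjusted p = 0.0474 from edgeR), EMC9 at -0.13 and PSME1 at -0.17. PSME1 and PSME2 encode subunits of the interferon-inducible proteasome activator. On the other side, REC8, a meiotic cohesin subunit, was at -0.21 with few counts, IPO4 at 0.13, and TM9SF1 at 0.01. TSSK4, a testis kinase with at most 1.25 CPM, had a 95% interval from 0.04 to 1.96. None of these 8 neighbours was called, which says little where 2.88% of all genes tested were called.

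Genes whose levels ran most like those of IRF9 over the 4 samples were found by the root mean square distance of log2 CPM, centred on each gene's own mean. They were DNAJC19, a mitochondrial import co-chaperone (distance 0.043), a row listed under the symbol 1-Mar (0.051), L3HYPDH, a proline metabolism enzyme (0.052), SUB1, a transcriptional coactivator (0.054), and TMEM71 (0.055). The symbol 1-Mar is a gene name changed to a date by a spreadsheet and stands on 2 rows, so the gene could not be named. None of the 5 is in an interferon list. Their log2 fold changes, from -0.78 to -0.66, follow from the way they were chosen.

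Many of the genes that were lower after this shRNA share short words in their 3′ UTR. An earlier look at these data picked 3 such words of 7 bases for going with a decrease. The first was AGCTATT, the second was GAAGCTA, and the third was GCTATTA. Parts of them overlap, and they were read on the mRNA strand. In the longest annotated 3′ UTRs (GENCODE 29), 68.4% of 158 genes called lower and 22.3% of 11693 genes tested hold 1 word or more. A higher share among the genes called lower follows from the way the words were picked, so it is no separate result. The 3′ UTRs of the genes called lower were also longer, with a median of 1612 bases against 1360 in the genes tested. The 3′ UTR of IRF9, 369 bases long, holds none of them. Among 1804 tested genes with a 3′ UTR within 1.5 times that length, 4.21% hold one.

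Of the 9 genes followed, JAK1 alone holds any of the words, with AGCTATT and GCTATTA in 1333 bases, and TANK in the sensor list holds the same 2 words. The sites are shown because IRF9 holds no such word, with each word in capitals. They begin at bases 834 and 769 of the 3′ UTR of JAK1 (transcript JAK1-201) and at bases 342 and 489 of that of TANK (TANK-210).

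JAK1, AGCTATT: ttggggcaAGCTATTccagcact

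JAK1, GCTATTA: acctggatGCTATTAcacatgct

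TANK, AGCTATT: agtttcacAGCTATTtgaatttt

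TANK, GCTATTA: tttacagtGCTATTActataatt

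TANK was called lower, and JAK1 was at -0.21 and not called. Of the 106 other pathway genes tested, 18 (17.0%) hold 1 word or more, against 22.3% of all genes tested. TANK is among them, and so is TLR3, which was called higher and holds AGCTATT. The median log2 fold change of the 18 was -0.093, and that of the pathway genes without a word 0.068. Over all genes tested these medians were -0.079 and 0.021. The part of such words in these values was not tested.

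Whether IRF9 met the rule for a call depended on the processing, and its direction did not in any of the settings tried. The steady direction is no support for the decrease. IRF9 was chosen for it, and with both knockdown samples below both controls, leaving out a sample could not reverse it. It met the rule in 9 of 15 alternatives, many of which are close variants of the same edgeR fit on the same samples. Without the second vector sample its log2 fold change was -0.74, and without the first shCHD7_2 sample -0.66, and in neither case was it called. With DESeq2, which called 1.85% of the genes tested, IRF9 had nearly the same fold change (-0.78) and was not called. On the log2(FPKM + 1) scale, which draws in the fold changes of low genes, it was at -0.55 by limma.

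**Figure D4:**
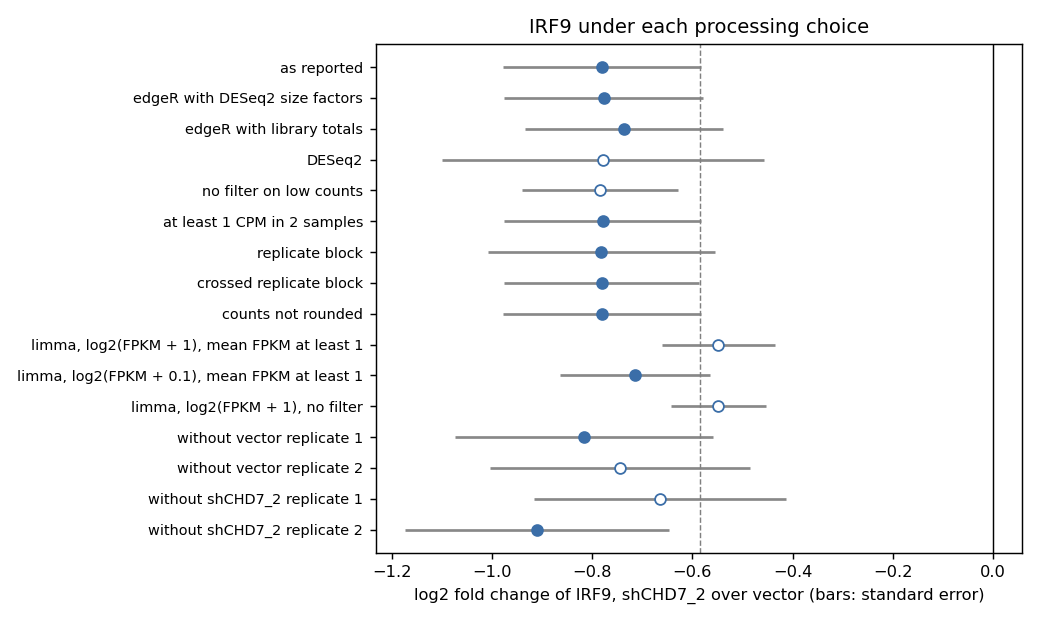
Log2 fold change of IRF9 in shCHD7_2 over vector cells under each processing choice, with standard errors as bars; filled points met the rule for a call, open points did not, and the dashed line marks a 1.5-fold decrease. All points lie between -0.91 and -0.55, and 9 of the 15 alternatives met the rule.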

How the data were processed

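The authors deposited tables of estimated counts and of FPKM (fragments scaled by transcript length and by library size) for 2 vector and 2 shCHD7_2 samples. The submitters' processing notes name hg38, Bowtie2, RSEM and DESeq2 with no versions, and RSEM gives counts that need not be whole (13.6% to 14.7% of the deposited estimated counts were not). Counts were rounded, filtered with filterByExpr, scaled by TMM and fitted with edgeR 4.0.16 (quasi-likelihood test, R 4.3.3), with Benjamini-Hochberg adjustment over 11955 genes. The rule for a call was an adjusted p below 0.05 with a change of at least 1.5-fold. Intervals are 95% and unadjusted. Alternatives were DESeq2 1.42.0, limma 3.58.1 on log2 FPKM, other filters and scalings, and leaving out each sample. Depth was 15734666 to 16068642 counts. Counting intervals cover counting error only. The edgeR, DESeq2 and limma fits were tested on simulated data.

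The genes followed and the lists were chosen with earlier results of these data known. Besides them, the text names CHD7, called genes of each list, the 3 most abundant tested genes of each, the 5 genes most like IRF9, and the 4 nearest listed genes on each side of it, with exceptions stated. With 2 samples a group an exact two-sided permutation test cannot go below p = 0.333, so none was used for single genes. Sequences came from RefSeq (GRCh38.p14) and GENCODE 29, and no genome coordinate was taken from the deposited tables.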

Additional observations from a re-analysis of the deposited data

How the results depend on the processing

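The call on IRF9 depended on the processing. Its direction did not, which is no support for the decrease, since IRF9 was chosen for it in these samples. The number of the 9 genes that met the rule was 1 in edgeR and 0 with DESeq2, with no low-count filter, and with limma on log2(FPKM + 1) with or without a filter. Leaving out a sample gave 0 to 1 of them, and 0 without vector replicate 2 or shCHD7_2 replicate 1. The log2 fold change of IRF9 was -0.55 by limma on log2(FPKM + 1) in both cases and -0.91 to -0.66 when a sample was left out. The genes called over the whole table were 344 in edgeR, 221 in DESeq2, 141 without a filter, 172 and 23 by limma on log2(FPKM + 1) with and without a filter, and 1373 without the fold limit, with 308 to 380 when a sample was left out. Of the other pathway genes, 3 were called in edgeR, 1 in DESeq2, 1 without a filter, 0 in both of those limma fits, 10 without the fold limit and 3 to 5 when a sample was left out, 5 without shCHD7_2 replicate 1. CHD7 was at -0.51 by limma on log2(FPKM + 1), with and without a filter, and -0.58 on log2(FPKM + 0.1), under the fold limit each time, and at -0.82 to -0.67 when a sample was left out. The pseudocount draws in the fold changes of low genes. The causes of the other changes were not tested.

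Signs near 0 reversed. IFNAR2 was at 0.019 with library totals, 0.046 to 0.047 in the limma fits and -0.070 to 0.015 when a sample was left out, IRF3 at -0.057 to 0.078 and IRF1 at -0.20 to 0.23 when a sample was left out. IFNAR1 was at 0.26 to 0.27 in the limma fits. IL10RB was at 0.0088 with library totals and 0.0070, 0.0073 and 0.0070 in the limma fits, PTPN11 at 0.014 with library totals and -0.14 to 0.064 when a sample was left out (0.0066 and 0.064 above 0). IFITM2 was between -0.050 and 0.19 when a sample was left out (-0.0097 and -0.050 below 0), and IRF5 between -0.032 and 0.046 (-0.014 and -0.032 below 0). Library totals moved the median of all genes to 0.045.

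Replicate numbers are shared by the groups, but nothing says that a number marks a shared culture, and deviations of same-numbered samples correlated at -0.20 over 11955 genes and at -0.50 over the 8765 genes above 4 log2 CPM. With the number as a replicate block, IRF9 was at -0.78 and called, 329 genes were called, and the block changed no call among the 9 genes. Pairing the numbers crosswise, an alternative chosen after seeing the data, gave 423 calls.

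With 87 and 93 reads of IRF9 in the control samples, 2 samples a group and a single CHD7 shRNA, the size of its change is known only within its interval. A 1.5-fold decrease of IRF7 could not be told from none at this depth.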
